A study of Mus musculus with 2 samples.

Results

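The 10 genes described here are D, E, A and B cyclins and kinases that cyclins switch on: *Ccnd1*, *Ccnd2*, *Ccnd3*, *Ccne1*, *Ccne2*, *Ccna2*, *Ccnb1*, *Cdk2*, *Cdk4* and *Cdk6*. Their relatives *Ccna1*, *Ccnb2*, *Ccnb3* and *Cdk1* are outside the set. The 10 genes were chosen by gene symbol from the 23183 genes listed. All 10 were found and had a mean of at least 1 FPKM (fragments mapped to a gene, scaled to transcript length and to the depth of the library). The values come from mRNA sequencing of mouse lung cancer cells, with 1 library of KPR- cells and 1 library of KPRrestored cells. The KPR- line was immortalized from lung tumors of mice given adenoviral Cre, driven by the CMV promoter, which switched on oncogenic *K-Ras* (*K-Ras* LSL-G12D/+), deleted *p53* (*p53* flox/flox) and inactivated the floxed *Runx3* allele, while a *Frt-Stop-Frt* cassette blocked the other allele (*Runx3* flox/FSF). The cells also carry the Tomato reporter and Flp ERT2, a recombinase that 4-hydroxytamoxifen (4-OHT) switches on. Flp removes the cassette, and the treated cells are called KPRrestored. By this design both libraries share activated *K-Ras* and deleted *p53*. *Trp53*, the *p53* gene, was at 2.12 FPKM in KPR- and 2.17 FPKM in KPRrestored, and the value per gene does not show whether the floxed part was lost.

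The sample titles place KPR- at 0 h and KPRrestored at 16 h, and the genotypes are given as RUNX3 -/- and RUNX3 -/+. The records list 1 μM 4-OHT for both libraries. With 1 library per condition there is no replicate error, no p-value was computed, and *Runx3* restoration, 4-OHT and hours in culture cannot be told apart. *Runx3* itself was at 0.348 FPKM in KPR- and 0.349 FPKM in KPRrestored, from about 28 and 29 fragments. The 95% counting interval of its log2 difference was wide, -0.79 to 0.81. The value per gene therefore does not check the labels. Each direction below is that of the library labelled KPRrestored against the library labelled KPR-. Low values fell on the steps that whole fragments make, from which the depth was estimated at 21.8 and 22.4 (in units of 1e6 fragments). The 95% intervals given with the differences come from those fragments and cover counting error of these 2 libraries only. Of the lung epithelium markers, keratin genes were high (*Krt8* 1711 and 1631 FPKM). *Epcam* had 105 and 91.6 FPKM and *Cdh1* had 119 and 130 FPKM. In contrast, *Sftpc* and *Scgb1a1* were listed at 0 in both libraries and *Nkx2-1* was under 0.05 FPKM. Of the leukocyte markers, *Ptprc* had 0 and 1 fragments, 3 of 5 were listed at 0 in both libraries, and *Cd68* had 3.08 and 6.78 FPKM. Of the endothelial markers, *Kdr* was the highest, at 1.10 and 2.05 FPKM. Of the 6 mesenchymal markers, *Vim* had 1777 and 1464 FPKM, *Col1a1* had 12.2 and 4.21 FPKM, and the others were under 0.4 FPKM. The part of these marker genes in the results was not tested.

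Cyclins are the regulatory partners of cyclin-dependent kinases, which are inactive without them. D cyclins are made in response to mitogens and RAS signals and activate Cdk4 and Cdk6 in G1, where the kinases phosphorylate the retinoblastoma protein and release E2F factors. E2F then drives the genes of the E cyclins and of cyclin A2, which bind Cdk2 to start and carry on DNA synthesis. Cyclin B1 binds Cdk1 to bring cells into mitosis. The passage from cyclin D to cyclin E control is the restriction point, where the study places Runx3 as a pioneer factor. The transcripts of several of these genes are themselves made in waves: the E cyclins around the start of S phase, cyclin A2 in S and G2, and cyclin B1 in G2 and mitosis.

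The sequences next to the start sites are given for 4 members whose values are set against each other below: *Ccne1*, which fell in the library labelled KPRrestored, and *Cdk2*, *Ccnb1* and *Cdk4*, whose differences were under the threshold of 0.5 on the log2 scale. Each is a window of 300 bases from RefSeq on GRCm38.p6, from 250 bases before to 50 bases after the annotated start, written 5′ to 3′ on the strand of the gene. The windows of *Cdk6* and *Ccnd3* were searched but are not printed, and no window was available for *Ccnd1*, *Ccnd2*, *Ccne2* and *Ccna2*. Of the genes that fell past the threshold, only *Ccne1* therefore has a window. Capitals mark matches, on either strand, to TTCCCGC or TTGGCGC (E2F sites), TTTGAA (the CHR element of G2 and mitosis genes), CCAAT (NF-Y), TGTGGT (RUNX) and TGANTCA (AP-1).
Ccne1, chr7:38107441-38107740, minus strand: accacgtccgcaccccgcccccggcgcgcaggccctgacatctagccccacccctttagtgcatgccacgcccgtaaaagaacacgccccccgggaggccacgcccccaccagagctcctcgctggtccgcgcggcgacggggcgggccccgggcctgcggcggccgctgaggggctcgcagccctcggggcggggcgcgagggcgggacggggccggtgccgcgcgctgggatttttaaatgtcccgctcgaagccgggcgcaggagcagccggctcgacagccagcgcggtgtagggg
Cdk2, chr10:128705002-128705301, minus strand: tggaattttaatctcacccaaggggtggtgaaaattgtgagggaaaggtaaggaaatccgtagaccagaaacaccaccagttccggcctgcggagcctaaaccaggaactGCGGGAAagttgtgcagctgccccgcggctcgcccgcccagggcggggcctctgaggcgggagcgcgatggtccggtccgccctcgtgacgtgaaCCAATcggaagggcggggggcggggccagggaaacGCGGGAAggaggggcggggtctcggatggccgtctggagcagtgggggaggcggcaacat
Ccnb1, chr13:100786437-100786736, minus strand: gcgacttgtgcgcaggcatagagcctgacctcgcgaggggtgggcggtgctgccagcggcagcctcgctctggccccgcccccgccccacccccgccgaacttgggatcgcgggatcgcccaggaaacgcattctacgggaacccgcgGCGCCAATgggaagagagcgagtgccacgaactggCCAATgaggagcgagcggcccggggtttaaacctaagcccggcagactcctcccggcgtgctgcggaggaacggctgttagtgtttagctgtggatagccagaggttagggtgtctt
Cdk4, chr10:127063285-127063584, plus strand: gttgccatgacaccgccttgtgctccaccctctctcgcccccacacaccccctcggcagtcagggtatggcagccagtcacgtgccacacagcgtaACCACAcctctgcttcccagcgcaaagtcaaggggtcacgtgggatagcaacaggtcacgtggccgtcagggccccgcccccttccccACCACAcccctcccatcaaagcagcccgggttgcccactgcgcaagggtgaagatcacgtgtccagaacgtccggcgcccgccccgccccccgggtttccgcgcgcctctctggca

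The windows differed in the exact letters they held. Only whole matches were marked, so a window without them may still hold a variant of a site. The *Cdk2* window had the E2F letters TTCCCGC on the opposite strand at 140 and 10 bases before the start, and CCAAT at 45 bases before it. The *Ccnb1* window had CCAAT at 99 and 67 bases before the start, the farther of which overlaps a match to TTGGCGC on the opposite strand that begins 102 bases before the start. The *Cdk4* window had TGTGGT on the opposite strand at 154 and 66 bases before the start, and no match to the other letters. The *Ccne1* and *Cdk6* windows had no match to any of the 6 letter sets, nor had the window of the upstream *Ccnd3* start, while that of the downstream *Ccnd3* start had CCAAT at 108 bases before it. Among all 32851 windows of the table, 6.81% held 1 or both of the E2F letter sets, 37.4% held CCAAT, 16.8% held TGTGGT, 17.9% held TTTGAA and 7.81% held TGANTCA. The *Ccne1* window was the richest of the 7 in G and C, at 76.0%, against a median of 52.7% over all windows.

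Transcripts of 4 of the 10 genes fell by 0.5 or more on the log2 scale in the library labelled KPRrestored, and 0 of 10 rose by as much. These were *Ccnd1*, *Ccne1*, *Ccne2* and *Ccna2*, all of them cyclins, and none of the 3 kinases passed the threshold. Among all 11231 genes with a mean of at least 1 FPKM, 9.29% were lower and 12.1% were higher by 0.5 or more, or 21.4% either way. The median log2 difference of the 10 genes was -0.37 against 0.0086 over all expressed genes, and 9 of the 10 lay below 0 against 5503 of the 11231. Because cyclin transcripts rise and fall with the cell cycle, fewer cells in a phase and less RNA per cell cannot be told apart in these bulk libraries.

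**Figure D1:**
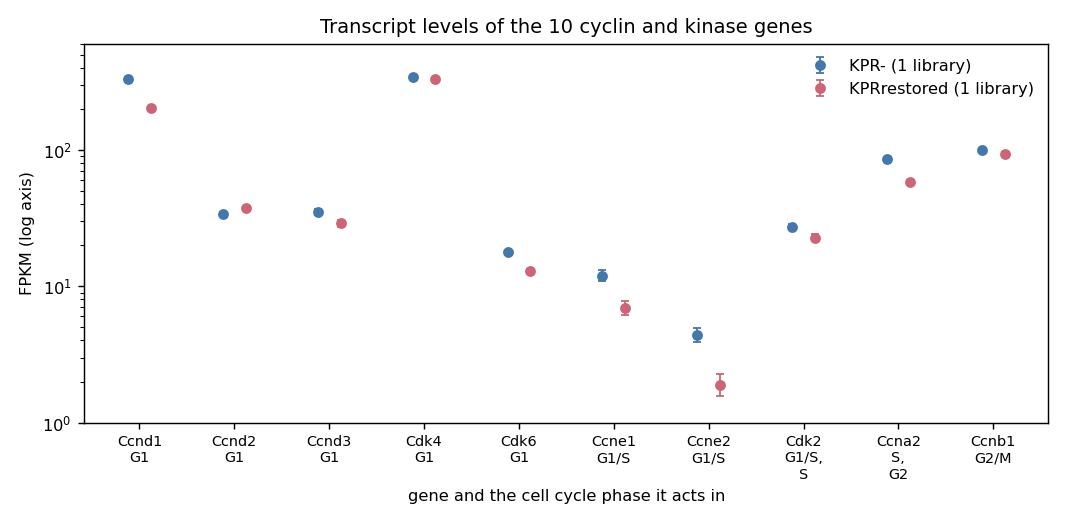
FPKM on a log axis of each gene in the KPR- library (blue) and the KPRrestored library (red), with 95% Poisson intervals of the estimated fragments as bars where they exceed the points. *Cdk4* and *Ccnd1* were the highest of the 10 in both libraries and *Ccne2* was the lowest, at 4.42 and 1.89 FPKM.

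The levels of the 10 genes spanned a wide range, and their order was nearly the same in both libraries. In KPR- the order from the highest was *Cdk4*, *Ccnd1*, *Ccnb1*, *Ccna2*, *Ccnd3*, *Ccnd2*, *Cdk2*, *Cdk6*, *Ccne1* and *Ccne2*. In KPRrestored the order was the same except that *Ccnd2* stood above *Ccnd3*. The neighbours *Ccnd3* and *Ccnd2* could not be ordered in KPR-, where the counting intervals of their levels ran from 33.2 to 36.8 and from 33.2 to 35.2 FPKM. *Cdk4* was 77.4 times as high as *Ccne2* in KPR- and 177 times as high in KPRrestored. FPKM is scaled to transcript length, so levels of different genes can be set side by side on it.

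*Ccnd1* encodes cyclin D1, the D cyclin most directly tied to RAS and MAP kinase signals. The gene lies on chromosome 7 of GRCm38 from 144929931 to 144939925 (minus strand) and has 1 coding transcript in GENCODE M21, of 5 exons and 3740 bases. Its level was 331 FPKM in KPR- and 203 FPKM in KPRrestored, from about 25445 and 16009 fragments. It fell by 0.71 on the log2 scale, with a counting interval of -0.74 to -0.68. In FPKM this was the largest change of the 10 genes, 38.8% of the KPR- level being lost, and only 4.00% of expressed genes had a lower log2 difference.

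*Ccnd2* and *Ccnd3*, which encode the other D cyclins, stayed within the threshold, *Ccnd2* above 0 and *Ccnd3* below 0. *Ccnd2* (chromosome 6 from 127125162 to 127152193, minus strand) had 34.2 FPKM in KPR- and 37.3 FPKM in KPRrestored, so that the log2 difference was 0.12 (counting interval 0.066 to 0.18.) It was the only one of the 10 genes above 0. With fragments estimated from the shortest coding transcript, the intervals of *Ccnd2*, *Ccnd3*, *Cdk4*, *Cdk6* and *Ccnb1* included 0. *Ccnd3* (chromosome 17 from 47505051 to 47599691, plus strand) had 34.996 FPKM in KPR- and 29.0 FPKM in KPRrestored, so that the log2 difference was -0.27 (counting interval -0.38 to -0.16.) The intervals of the 3 D cyclins did not overlap, but with the shortest coding transcript that of *Ccnd3*, -0.72 to 0.17, overlapped both others. *Ccnd3* has 2 windows in the RefSeq table and 16 coding transcripts in GENCODE M21, and the value per gene does not separate them.

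The D cyclin pool was therefore lower in all and less dominated by *Ccnd1*. The 3 genes summed to 400 FPKM in KPR- and 269 FPKM in KPRrestored, a log2 difference of -0.57. *Ccnd1* made up 82.7% of the sum in KPR- and 75.4% in KPRrestored, while *Ccnd2* went from 8.55% to 13.9% and *Ccnd3* from 8.75% to 10.8%. The fragments estimated with the longest transcript of each gene give an exact binomial interval for the share of fragments. That share differs from the share of FPKM, for which no interval was computed. *Ccnd1* took 80.9% of the D cyclin fragments in KPR- (95% Clopper-Pearson interval 80.5% to 81.3%) and 71.6% in KPRrestored (71.0% to 72.2%). Those intervals leave out the choice of transcript. With the shortest coding transcript, *Ccnd1* had 25445 and 16009 fragments, *Ccnd2* 310 and 347 and *Ccnd3* 95 and 81, so that *Ccnd1* takes a larger share of them. *Ccnd1* was 9.68 times as high as *Ccnd2* in KPR- and 5.44 times as high in KPRrestored.

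The 2 kinases that D cyclins activate differed from each other. *Cdk4* (chromosome 10 from 127063534 to 127067920, plus strand) had 342 FPKM in KPR- and 334 FPKM in KPRrestored, so that the log2 difference was -0.035 (counting interval -0.069 to -0.00036.) *Cdk6* (chromosome 5 from 3341485 to 3531008, plus strand) had 17.8 FPKM in KPR- and 12.9 FPKM in KPRrestored. The log2 difference was -0.47, just inside the threshold, and its counting interval, -0.53 to -0.40, reached across it. *Cdk4* was the main D cyclin kinase transcript of these cells, 19.3 times as high as *Cdk6* in KPR- and 26.0 times as high in KPRrestored. Set against its partner, *Ccnd1* was 0.967 times the level of *Cdk4* in KPR- and 0.606 times in KPRrestored.

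**Figure D2:**
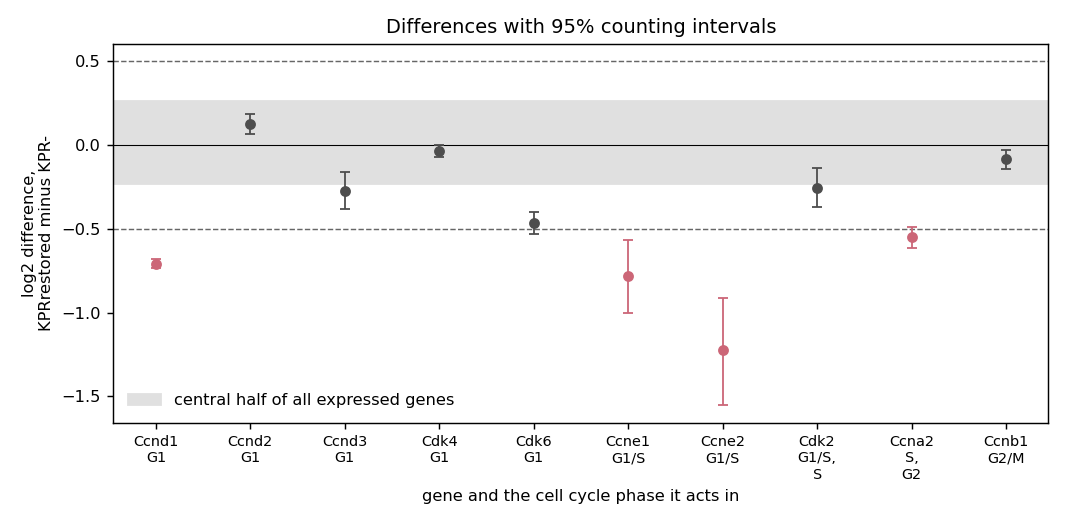
Log2 difference of each gene, KPRrestored minus KPR-, with 95% counting intervals as bars, the central 50% of all expressed genes as a grey band and dashed lines at 0.5 either way. The 4 red points at or below the lower line are *Ccnd1*, *Ccne1*, *Ccne2* and *Ccna2*, and *Ccnd2* is the highest point, at 0.12.

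*Cdk6* was also the gene whose transcript was the longest of the 10, at 11525 bases. Over 11182 expressed genes with a length, Spearman's rho between transcript length and the difference was -0.21, given as a description across genes of the same 2 libraries. The expressed genes in the longest of 10 length classes had a median difference of -0.19, and set against that median *Cdk6* was at -0.27. The same comparison put *Ccnd2*, of 6330 bases, at 0.22 and *Cdk4*, of 2053 bases, at -0.13, and left all 4 genes that fell past the threshold. The part of transcript length in these differences was not tested otherwise.

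The E cyclins, which pair with Cdk2 at the entry into S phase, both fell, with the 2 lowest log2 differences of the 10 genes. *Ccne1* (chromosome 7 from 38097984 to 38107534, minus strand, 12 exons) went from 11.98 FPKM in KPR- to 6.97 FPKM in KPRrestored, or about 467 and 279 fragments. It fell by 0.78 on the log2 scale, and the counting interval, -1.002 to -0.57, overlapped that of *Ccnd1*. Its start region is the *Ccne1* window printed above.

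*Ccne2* (chromosome 4 from 11191351 to 11204779, plus strand, 12 exons) went from 4.42 FPKM in KPR- to 1.89 FPKM in KPRrestored. It fell by 1.22 on the log2 scale, with a counting interval of -1.55 to -0.91, and was the only one of the 10 genes past a threshold of 1. The counts behind it, about 269 and 118 fragments, were the lowest of the 10 genes, and the intervals of *Ccne1* and *Ccne2* overlapped. The difference between their falls was not tested. Only 0.819% of expressed genes had a lower log2 difference than *Ccne2*.

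Together the E cyclins summed to 16.4 FPKM in KPR- and 8.86 FPKM in KPRrestored, lower by a log2 difference of -0.89. *Ccne1* was the more abundant in both libraries, at 73.0% of the sum in KPR- and 78.7% in KPRrestored. In fragments estimated with the longest transcript its share was 63.5% (95% Clopper-Pearson interval 59.9% to 66.9%) and 70.3% (65.5% to 74.7%). These intervals overlapped, and the difference between the shares was not tested. With the shortest coding transcript the order in fragments turned, at about 104 and 62 of *Ccne1* beside 260 and 114 of *Ccne2*.

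*Cdk2*, the kinase of cyclins E and A, moved less than its cyclins. It lies on chromosome 10 from 128697939 to 128705031 (minus strand) and had 27.1 FPKM in KPR- and 22.7 FPKM in KPRrestored. The log2 difference was -0.25, with a counting interval of -0.37 to -0.14 that did not overlap those of *Ccne1*, *Ccne2* or *Ccna2*. With the shortest coding transcript the intervals of *Cdk2* and *Ccne1*, -0.38 to -0.13 and -1.26 to -0.32, overlapped. *Cdk2* was 2.26 times as high as *Ccne1* in KPR- and 3.26 times as high in KPRrestored.

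*Ccna2*, which encodes the cyclin of S phase and G2, fell, and *Ccnb1*, which encodes that of mitosis, stayed within the threshold. *Ccna2* (chromosome 3 from 36564865 to 36572150, minus strand) went from 85.8 FPKM in KPR- to 58.5 FPKM in KPRrestored. It fell by 0.55 on the log2 scale, with a counting interval of -0.61 to -0.49 that reached across the threshold. *Ccnb1* (chromosome 13 from 100778650 to 100786570, minus strand) had 99.7 FPKM in KPR- and 94.0 FPKM in KPRrestored, so that the log2 difference was -0.085 (counting interval -0.14 to -0.027.) *Ccnb1* was 1.16 times as high as *Ccna2* in KPR- and 1.61 times as high in KPRrestored.

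The closest relatives of these genes lay between them. *Ccnb2*, the other mitotic B cyclin, had 49.9 and 42.0 FPKM (log2 difference -0.25), and *Cdk1*, the mitotic kinase, had 71.0 and 62.1 FPKM (log2 difference -0.19). Of *Ccna2*, *Ccnb1* and *Ccnb2* together, *Ccnb1* made up 42.4% of the FPKM in KPR- and 48.3% in KPRrestored. *Ccna1*, the cyclin A of the germline, was listed at 0 in both libraries, and *Ccnb3* had 0 and 1 fragments.

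**Figure D3:**
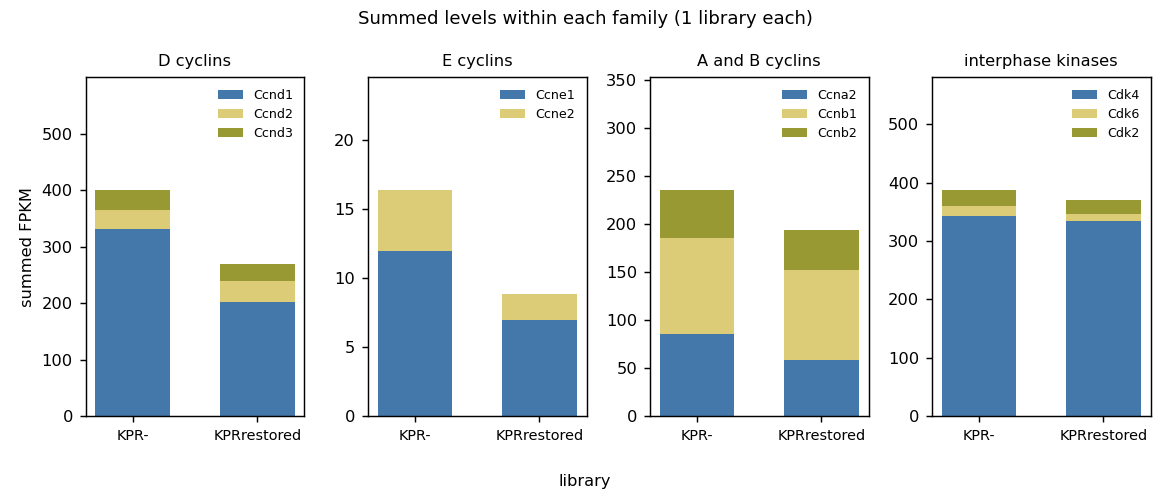
Stacked bars of FPKM in the KPR- and KPRrestored libraries for the D cyclins, the E cyclins, the A and B cyclins and the interphase kinases, each panel on its own axis from 0. The D and E cyclin sums fall from 400 to 269 and from 16.4 to 8.86 FPKM, while the kinase sum is 387 and 370 FPKM and mostly *Cdk4*.

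The 3 kinases summed to 387 FPKM in KPR- and 370 FPKM in KPRrestored, a log2 difference of -0.066, of which *Cdk4* made up 88.4% and 90.4%. The cyclin sums therefore moved more than the kinase sum, which mostly reflects *Cdk4*. By itself *Cdk6* had a lower log2 difference, -0.47, than the cyclins *Ccnd2*, *Ccnd3* and *Ccnb1*. By cell cycle phase, the members that fell past the threshold stood at G1 (1 of 3 D cyclins), at G1/S (both E cyclins) and at S and G2 (*Ccna2*). The kinases of these phases, *Cdk4* and *Cdk6* at G1 and *Cdk2* at G1/S and S, did not pass it. Nor did *Ccnb1*, the only member of mitosis.

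Some reads could come from neighbouring genes. In GENCODE M21, *Ccnd1* overlaps *Oraov1* (named LTO1 there), *Ccne2* overlaps *Ints8*, *Ccna2* overlaps *Exosc9*, *Ccnd3* overlaps *Bysl*, *Cdk4* overlaps *Tspan31* and *Cdk2* overlaps *Pmel*, each on the opposite strand, and *Ccnd2* and *Cdk6* overlap antisense genes. The library kit keeps strand, but whether the counting used it is not given in the sources used here. *Exosc9* and *Oraov1* had differences of 0.30 and 0.29, opposite in sign to *Ccna2* and *Ccnd1*, and *Tspan31* had a difference of -0.38 beside -0.035 for *Cdk4*. *Ints8*, at 17.3 and 15.5 FPKM, and *Bysl*, at 23.3 and 20.4 FPKM, had differences of -0.16 and -0.19, of the same sign as *Ccne2* and *Ccnd3*. *Pmel* was at 0.285 and 0.208 FPKM. GENCODE M21 also names a processed pseudogene of *Ccnb1* and one of *Ccnd3*, whose reads could be shared with them.

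The genes around the cyclins and kinases were described with lists by function. Over all expressed genes, 12.1% were higher and 9.29% lower by 0.5 or more, and these shares apply to each list below. Of the 7 CDK inhibitor genes, 2 rose by 0.5 or more and 0 fell, with a list median of 0.24. *Cdkn1a*, which encodes the p21 inhibitor of CDK2 complexes, rose from 14.2 to 39.6 FPKM, and *Cdkn2b*, which encodes the p15 inhibitor of Cdk4 and Cdk6, rose from 33.7 to 66.6 FPKM. *Cdkn1b* (p27) had 25.4 and 32.3 FPKM, and *Cdkn2a*, which gives Ink4a and Arf, had 206 and 244 FPKM, neither past the threshold. The lowest differences of the list were those of *Cdkn2c*, at -0.35, and *Cdkn1c*, at -0.21. *Cdk4* was 1.66 times as high as *Cdkn2a* in KPR- and 1.37 times as high in KPRrestored.

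Of the 13 pocket protein and E2F genes, 3 fell and 1 rose by 0.5 or more, with a list median of -0.28. *E2f7* fell from 8.72 to 4.62 FPKM and *E2f8* fell from 23.9 to 13.0 FPKM. Both encode atypical E2Fs that repress G1/S genes and are themselves E2F targets. *Tfdp1*, the E2F dimer partner, had a log2 difference of -0.53, while *E2f2* rose from 4.12 to 6.90 FPKM. *Rb1*, the target of the D cyclin kinases, had 3.34 and 4.21 FPKM, a log2 difference of 0.33, and *E2f1* had 18.2 and 17.5 FPKM.

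The 30 G1/S genes known as E2F targets had a median log2 difference of -0.51, with 16 lower and 0 higher by 0.5 or more and 29 below 0. *Ung*, a uracil DNA glycosylase, fell from 10.4 to 4.54 FPKM, and *Pola1*, the catalytic subunit of DNA polymerase alpha, fell from 22.8 to 10.9 FPKM. The highest difference of the list was 0.25, for *Cdt1*, a licensing factor. The 26 G2/M genes had a median of -0.33, with 7 lower and 0 higher. *Mki67* and *Top2a* fell by 0.75 and 0.72 on the log2 scale, while *Ube2c* and *Aurka* had differences of 0.10 and 0.074. *Ccnb2*, *Cdk1* and *Cdc25c* are each on that list and on another. Beside these lists, the background shares of 9.29% lower and 12.1% higher apply, and the lists were written with earlier results of the data known.

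**Figure D4:**
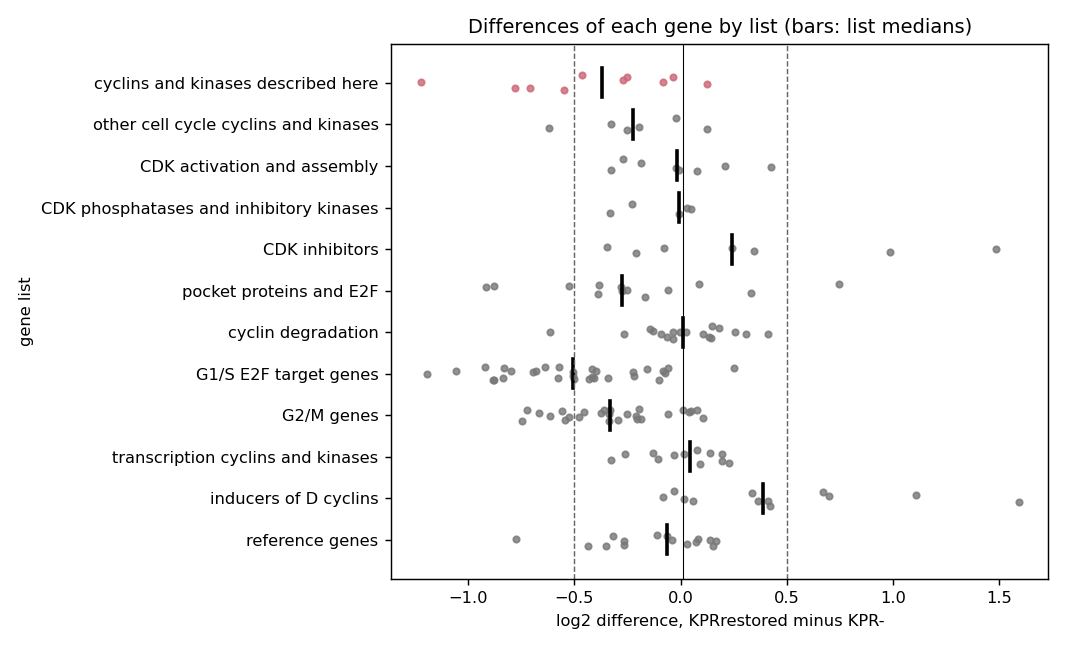
Log2 difference of every gene with a mean of at least 1 FPKM in each list (points), KPRrestored minus KPR-, with list medians as black bars and dashed lines at 0.5 either way. Among the lists drawn, which leave out the cell type markers, the G1/S list has the lowest median, -0.51, and the list of inducers of D cyclins the highest, 0.39.

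Genes listed as inducers of D cyclins formed a list of 12, which holds no member. Whether each of them raises D cyclin transcription in these cells was not tested. Of these, 4 rose by 0.5 or more and 0 fell, with a median of 0.39, beside 12.1% higher and 9.29% lower over all expressed genes. *Jun* rose from 13.6 to 29.3 FPKM, *Fosl1* rose by 0.70 and *Myc* rose by 0.67 on the log2 scale. *Fos* rose by 1.59 from 0.654 to 1.98 FPKM, or about 27 and 84 fragments. *Sp1* and *Etv4* had the lowest differences, -0.083 and -0.032.

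Other lists held the genes that activate, modify or destroy the complexes. Of the 8 genes for CDK activation and assembly, 0 passed the threshold in either direction, with a median of -0.016. *Mnat1* and *Ccnh*, partners of Cdk7 in the CDK-activating kinase, had differences of 0.42 and 0.21, and the chaperone genes *Hsp90ab1* and *Hsp90aa1* had -0.33 and -0.27. Of the 5 CDK phosphatase and inhibitory kinase genes, 0 passed it, with a median of -0.0073. *Cdc25a*, the phosphatase that activates Cdk2, had a difference of -0.33, *Wee1* had -0.23, *Cdc25c* had 0.050 and *Cdc25b* had 0.029.

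Of the 18 cyclin degradation genes, 1 fell and 0 rose, with a median of 0.012. *Skp2*, the ubiquitin ligase subunit that targets p27, fell from 20.3 to 13.2 FPKM. *Cdc23* had a difference of -0.27, and *Anapc11* and *Anapc2*, subunits of the ligase that destroys mitotic cyclins, had 0.41 and 0.31. Of the 8 other cell cycle cyclin and kinase genes, 6 had a mean of at least 1 FPKM, 1 of these fell and 0 rose, with a median of -0.22. *Ccnf* fell by 0.62 on the log2 scale, *Cdk14* had a difference of -0.33, *Cdk5* had 0.13 and *Cdk16* had -0.021.

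The cyclins and kinases of transcription, which share the fold of the cell cycle members but act on RNA polymerase II, were listed apart. Of these 12 genes 0 passed the threshold, with a median of 0.045 and differences from -0.33 for *Cdk12* and -0.26 for *Ccnt1* to 0.20 for *Cdk9* and 0.23 for *Ccnl1*. Of the 15 reference genes, 1 fell and 0 rose, with a median of -0.065. *Tfrc*, the transferrin receptor, fell by 0.78 on the log2 scale, *Gusb* had a difference of -0.43, and *Rpl13a* and *B2m* had 0.17 and 0.15. No difference between any of these lists and the 10 genes was tested, since each gene has 1 value per condition.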

How the data were processed

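The authors removed adapters and low-quality reads, aligned the paired reads with TopHat and took FPKM from Cufflinks. The deposited table holds FPKM of 23183 genes in both libraries. A normalization of read counts that the methods also name was not used here. Per the labels the build is mm10. The tool versions, the annotation and the strand setting of the counting are not given in the sources used here.

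Differences were log2(FPKM + 0.005) in KPRrestored minus that in KPR-. Calls used 0.5 in either direction and were limited to genes averaging 1 FPKM or more. This scale understates the change of genes near the pseudocount. Transcript lengths and positions came from GENCODE M21 on GRCm38, the assembly mm10 stands for (22148 symbols matched directly and 675 through a synonym). The depth and a mean fragment length of 212 bases were fitted to the steps of low FPKM values of 4325 genes with 1 transcript. Of these, 577 and 595 genes had 0.5 to 5.5 estimated fragments, and 78.5% (KPR-) and 80.5% (KPRrestored) of them were within 0.1 of a whole number. Fragments of a gene were estimated with its longest transcript that has a RefSeq counterpart. Intervals of differences and shares are 95% Clopper-Pearson and those of levels are exact Poisson. Fragments are not independent molecules, so both cover counting error only. The fit and the intervals were tested on simulated data of genes with 1 transcript of known length. The simulated counts were independent Poisson draws, as the intervals assume, so that test cannot show how the intervals hold for fragments that are not independent. The choice of transcript length was outside that test. No test of the conditions was possible with 1 library each.

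The 10 genes and the lists were chosen with earlier results of these data known. Genes named from a list were the 2 highest and 2 lowest by log2(FPKM + 1) among those with a mean of at least 1 FPKM, the inhibitor and pocket protein genes *Cdkn1a*, *Cdkn1b*, *Cdkn2a*, *Cdkn2b* and *Rb1*, and *Runx3*. Of the genes this rule names, 1 is not reported here. *Ccnb2*, *Cdk1*, *Ccna1*, *Ccnb3*, *Myc*, *Fosl1*, *Tfdp1*, *E2f1* and the overlapping genes were named after their values were seen. No gene was named for likeness of pattern, since 2 libraries give 1 difference per gene. Alternatives were pseudocounts of 0.1 and 1, other filters, a threshold of 1, 3 scalings, shorter transcripts and, added after the values were seen, centring within 10 classes of transcript length. Intervals were computed with scipy 1.17.1, tables with pandas 2.3.3 and numpy 2.4.6, and plots with matplotlib 3.10.9, all under Python 3.11.15.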

Additional observations from a re-analysis of the deposited data

How the results depend on the processing

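The direction of all 10 genes was kept under both other pseudocounts, the 3 scalings and the length centring, and the same number of genes, 4 lower and 0 higher, passed 0.5 under each of these. Values that left the counting interval were those of *Ccne2* with a pseudocount of 1 (-0.91), of *Ccnd1* (-0.74) and *Cdk4* (-0.069) with the same upper quartile, and of *Ccnd2* (0.22), *Cdk4* (-0.13) and *Cdk6* (-0.27) centred on their length class. With a mean FPKM of at least 5, *Ccne2* drops out and 3 genes were lower. With a threshold of 1, 1 of the 10 genes was lower, and 325 expressed genes were higher and 155 lower. Without the filter 3193 genes were higher and 3002 lower, and with a mean FPKM of at least 5 they were 872 and 641, since more and fewer genes are then counted. Of 297 list values under the alternatives, 285 stayed within 1.5 times the count or 0.1 of the median. With a threshold of 1, higher genes were 1 CDK inhibitor, 0 pocket protein and E2F genes and 2 inducers, and lower genes were 2 of the G1/S list and 0 of the G2/M, pocket protein and E2F, cyclin degradation, other cyclin and kinase, and reference lists. Centred on the length class, 4 G2/M genes were lower. Without the filter, 1 other cyclin or kinase gene was higher and their median was -0.11.

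In fragments estimated with the longest transcript, which weight long transcripts more, *Ccnd1* made up 80.9% and 71.6% of the D cyclins. *Ccne1* made up 63.5% and 70.3% of the E cyclins. *Ccnb1* made up 49.7% of the A and B cyclins in KPRrestored, and *Cdk4* 70.7% and 75.9% of the 3 kinases. Shares of fragments differ with the shortest coding transcript. With the shortest coding transcript, the counting intervals of *Ccnd2*, *Ccnd3*, *Cdk4*, *Cdk6* and *Ccnb1* included 0 (-0.10 to 0.35, -0.72 to 0.17, -0.10 to 0.031, -1.03 to 0.11 and -0.17 to 0.0034), because fewer fragments are then estimated. Depth limits *Ccne2* most with the longest transcript and *Cdk6* most with the shortest. No paired analysis was possible because each condition has 1 library.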
